A study of Mus musculus with 8 samples.

Results

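The mitochondrial ribosomal proteins of the mouse were followed through 8 arrays of soleus, a muscle of the calf with slow and fast fibres. The genes were taken from the array design itself, as every probe whose gene name there is Mrpl or Mrps followed by a number and, for some, a letter. This gave 77 genes, 48 named for the large subunit and 29 for the small subunit, among 22221 genes tested. The rule itself used names and no expression value. The soleus samples came from male C57BL/6J mice on a high-fat diet, all aged 14 weeks and all 8 weeks old at the start. Over 6 weeks, the mice of 4 samples were given Porphyromonas gingivalis, a bacterium of gum disease, by mouth in saline, and the mice of the other 4 samples saline alone. The comparison asks how muscle expression differs after oral administration of the bacterium.

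The mitochondrial ribosome makes the few proteins that mitochondrial DNA encodes, which are core subunits of the respiratory chain and of ATP synthase. Its RNAs come from mitochondrial DNA, while its proteins are encoded in the nucleus, made in the cytosol and imported. Many of these proteins descend from bacterial ribosomal proteins and others were added in the mitochondrial lineage. Slow muscle is rich in mitochondria.

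The sign of every difference follows the sample labels. In the authors' deposited table, 8 of 8 columns held the values of the array labelled with the other group and the same number, so that all signs turn if the table's names are the right ones. All arrays shared 1 slide, with the saline arrays on one side and the P. gingivalis arrays on the opposite side, and an effect of the side cannot be told apart from one of the group. The labels do not state whether the arrays stand for separate mice, and the p-values may then measure technical spread alone. The saline arrays had 30211 to 34112 probes well above background, against 34856 to 35399 for P. gingivalis. Arrays correlated at 0.989 to 0.995 within groups and at 0.989 to 0.992 between groups. The array P. gingivalis 2, whose extraction was marked for evaluation, had the lowest 75th percentile of signal. All 9 slow fibre markers were well above background on 8 of 8 arrays, as were all 11 fast fibre markers. Neutrophil markers were detected too, apart from Ngp and Retnlg, which were not tested because their probes were too dim. Over all genes, 8 were higher and 18 lower at an adjusted p under 0.05, a split that became 2290 and 95 when each array was scaled to its median.

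The members share promoter features that the choice did not use, and 3 promoters are shown to make this visible. RefSeq promoter windows of 300 bases (250 before and 50 after the transcription start, build GRCm38.p6) were matched to 68 of the 77 genes. They were searched on both strands for 3 short motifs known from promoters of nuclear genes for mitochondrial proteins. These were the core of the site of NRF1 (GCGCATGC), the ETS core that GABP binds (CCGGAAG) and the core of the YY1 site (AAGATGGCG). The windows below belong to the 3 members with the smallest p among those with separated groups and a match, written 5′ to 3′ on the gene's strand with the match in capitals. The Mrpl10 window lies at chr11:97041332-97041631 on the plus strand, the Mrps11 window at chr7:78782881-78783180 on the plus strand and the Mrps24 window at chr11:5707652-5707951 on the minus strand.
Mrpl10: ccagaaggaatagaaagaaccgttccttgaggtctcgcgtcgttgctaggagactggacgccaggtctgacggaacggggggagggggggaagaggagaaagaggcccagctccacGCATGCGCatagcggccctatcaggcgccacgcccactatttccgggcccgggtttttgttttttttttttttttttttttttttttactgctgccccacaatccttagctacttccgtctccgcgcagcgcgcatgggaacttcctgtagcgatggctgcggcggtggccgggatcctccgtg
Mrps11: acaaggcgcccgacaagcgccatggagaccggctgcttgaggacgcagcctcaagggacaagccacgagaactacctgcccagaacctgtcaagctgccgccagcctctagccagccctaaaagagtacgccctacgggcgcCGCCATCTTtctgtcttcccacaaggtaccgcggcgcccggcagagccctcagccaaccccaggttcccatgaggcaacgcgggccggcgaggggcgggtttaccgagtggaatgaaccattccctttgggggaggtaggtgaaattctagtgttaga
Mrps24: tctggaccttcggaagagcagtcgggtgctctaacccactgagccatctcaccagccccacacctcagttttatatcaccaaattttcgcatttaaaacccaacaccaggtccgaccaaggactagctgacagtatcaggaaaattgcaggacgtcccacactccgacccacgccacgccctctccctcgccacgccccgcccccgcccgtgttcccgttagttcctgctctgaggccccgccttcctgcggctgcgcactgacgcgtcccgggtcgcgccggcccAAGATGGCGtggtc
The match in Mrpl10 is the NRF1 core on the opposite strand, beginning 134 bases before the start. Mrps11 holds the YY1 core on the opposite strand, beginning 108 bases before the start, and Mrps24 holds it on the gene's strand at base 37 after the start.

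An ETS core was found in 25 of the 68 matched members (36.8%), against 9.93% of the 27025 genes of the promoter table. The NRF1 core was in 8 members (11.8% against 3.05% of all genes) and the YY1 core in 8 (11.8% against 1.64%). At least 1 of the 3 was present in 35 members, or 51.5%, against 13.6% of all genes. Complex I subunits, nuclear-encoded parts of the first respiratory complex, held at least 1 in 12 of 33 (36.4%), and cytosolic ribosomal proteins, which make up the ribosome outside mitochondria, in 29 of 58. The ETS core was at a like share in cytosolic ribosomal proteins (39.7%) and lower in complex I (12.1%). By window, the ETS core was in 33.8% of the members' 74 windows and 8.86% of all 32851. In 6 members more than 1 motif was found, and in 0 did matches of different motifs overlap. A match is a run of letters in the window and not a binding site.

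**Figure D1:**
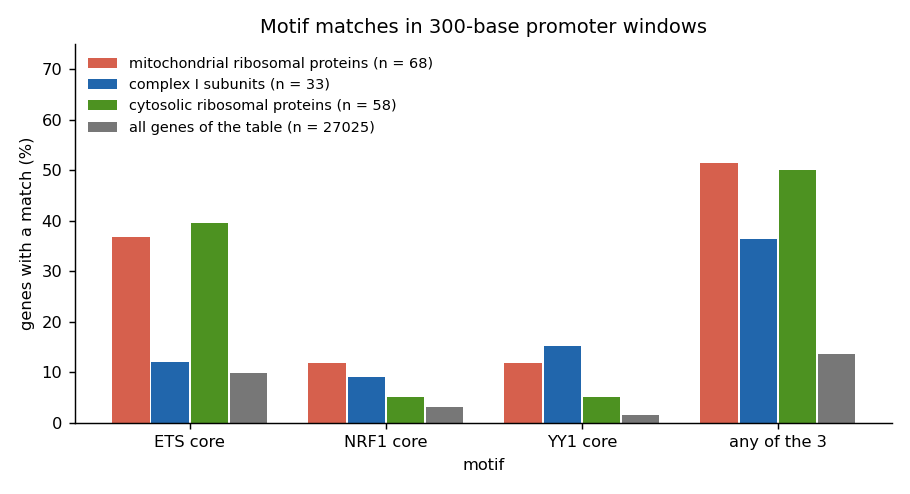
The share of genes (%) whose promoter window holds each motif is drawn for 68 mitochondrial ribosomal protein genes, 33 complex I subunits, 58 cytosolic ribosomal protein genes and all 27025 genes of the RefSeq table. The ETS core is in 36.8% of the members and 9.93% of all genes.

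Expression of the mitochondrial ribosomal proteins lay close together in the 2 groups. Of 77 members, 41 were higher and 36 lower in P. gingivalis arrays, and limma's fit called 0 of them at an adjusted p under 0.05, against 0.117% of all genes. The median difference was 0.0040 on the log2 scale (P. gingivalis minus saline), beside -0.011 over all genes tested. Differences ran from -0.17 for Mrpl2, a core protein near the site of peptide bond formation, to 0.24 for Mrps11, a protein of the small subunit's platform. At the brightest kept probe of each gene, the greatest difference in either direction was thus 1.18-fold. There 52 members differed by under 0.1 on the log2 scale. Scaling each array to its median in place of the 75th percentile raised the median of all genes to 0.14 and that of the members to 0.15, with 75 of 77 above 0. This adds the same amount, 0.15, to every gene's difference, so it leaves the order of the genes as it is. In the main scaling 45 of 77 members lay above the median of all genes. Under median scaling 10 members (13.0%) and 2385 of all genes (10.7%) were called, and with a trended, robust variance 1 member, Mrpl10 (limma adjusted p = 0.0432), and 567 of all genes. Under quantile normalization 36 of 77 were higher.

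The intervals describe the precision of each gene's difference in the main scaling. They do not cover the choice of scaling, which by median scaling moved every difference by 0.15, or an effect of the slide side. They may also rest on technical spread alone. All 77 of the 95% intervals from the limma fit lay within 0.5 of 0 on the log2 scale, and the outermost bounds were -0.35 and 0.39. The median standard error of a member was 0.060 and that over all genes 0.099. A low adjusted p was approached by Mrpl10 (0.0859), and no other member was under 0.1. At an unadjusted p under 0.05 in the same limma fit, 7 members were higher and 2 lower, against 10.1% and 9.66% of all genes. The members' share of 9.09% higher was near that of all genes and under the 12.8% of the 10018 genes in the members' range of signal. Groups did not overlap in 9 members that were higher and 2 that were lower (11.7% and 2.6%), against 7.35% and 6.07% of all genes. Of the genes in the members' range of signal, 10.5% were higher and 7.29% lower without overlap, so the higher share of the members was near theirs. In such samples of whole muscle, fewer fibres and less RNA per fibre cannot be told apart.

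**Figure D2:**
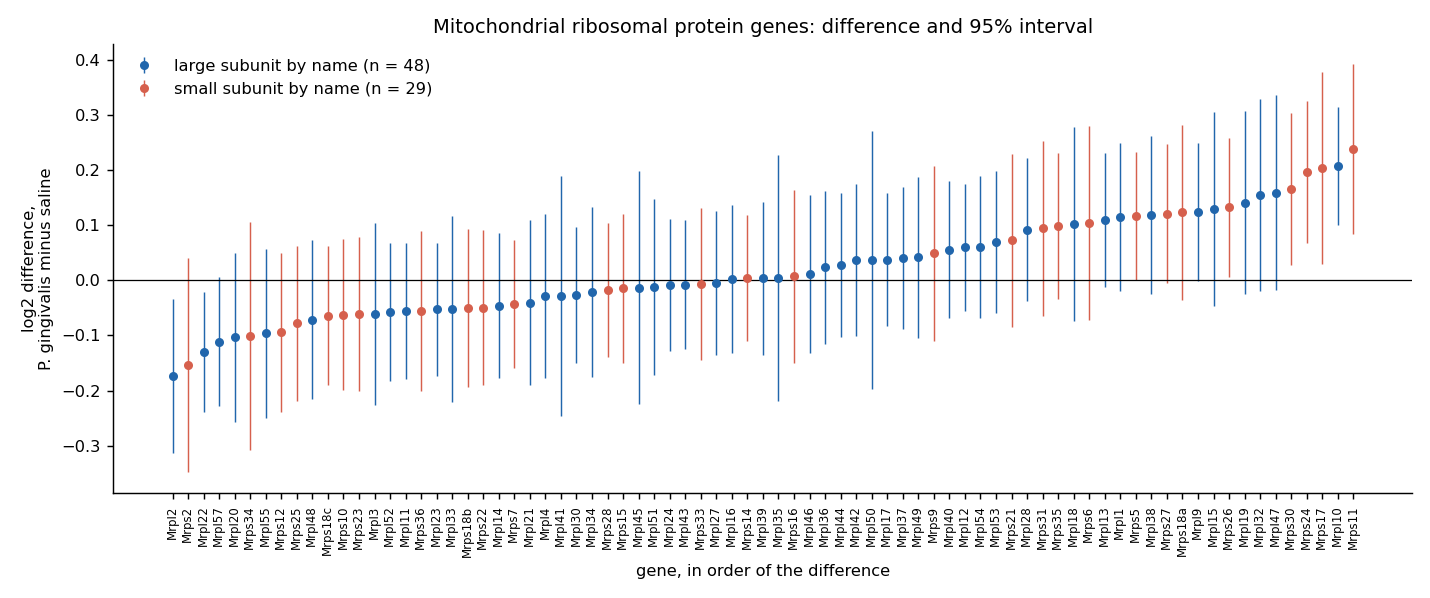
Each of the 77 genes is drawn by its log2 difference (P. gingivalis minus saline, y axis) with its 95% interval from the limma fit, ordered by the difference, with large and small subunit genes by name in different colours. The points run from -0.17 to 0.24, with 41 above 0 and 36 below.

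Array by array, the members moved together by small amounts that did not follow the groups. For each member, the mean over 8 arrays was taken off, and the median over members was then read on each array. It was 0.012, -0.056, 0.063 and -0.024 on saline arrays 1 to 4 and 0.012, 0.024, 0.042 and -0.031 on P. gingivalis arrays 1 to 4. The lowest and the highest of the 8 values were both from saline arrays, so the groups overlapped fully. On saline 3, 61 of 77 members were above their own mean, and on saline 2 only 15 were. Leaving out saline 3 gave 17 members with separated higher groups in place of 9 (22.1%), while the share of all genes rose from 7.35% to 11%, and the members' median moved to 0.029. Leaving out saline 2 moved it to -0.016.

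The stalk of the large subunit, which recruits translation factors, is formed by Mrpl10, Mrpl11 and Mrpl12. Mrpl10, the protein that anchors the stalk, had the smallest p of all members. On a log2 scale relative to each array's 75th percentile, its signal was 2.12, 2.04, 2.09 and 2.09 on the saline arrays and 2.29, 2.31, 2.32 and 2.26 on the P. gingivalis arrays. All 4 P. gingivalis arrays lay above all 4 saline arrays. The difference was 0.21 (SE 0.046), and the limma adjusted p of 0.0859 did not pass the threshold. A dimmer second probe of the gene read 0.92, 0.95, 1.17 and 1.08 in saline and 1.24, 1.22, 1.25 and 1.26 in P. gingivalis, likewise without overlap and with a difference of 0.21. The brighter probe lies at chr11:96910057-96910116 and the dimmer at chr11:96909769-96909828 in build mm9. Mrpl12, which forms the flexible part of the stalk and is also known to bind the mitochondrial RNA polymerase, read 5.36, 5.39, 5.48 and 5.44 in saline and 5.47, 5.47, 5.52 and 5.44 in P. gingivalis. Its groups overlapped (difference 0.060, SE 0.050). Mrpl11, at the base of the stalk, differed by -0.056 (SE 0.053), again with overlap.

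Proteins that bind the large ribosomal RNA near the catalytic core were represented by Mrpl2, Mrpl3, Mrpl4, Mrpl13 and Mrpl20. In this group 4 of 5 were lower, with a median of -0.061, and under median scaling 4 of 5 were higher. Mrpl2 read 5.37, 5.37, 5.44 and 5.29 in saline and 5.12, 5.20, 5.16 and 5.30 in P. gingivalis. The groups overlapped through a single array, P. gingivalis 4, which stood above the lowest saline array (difference -0.17, SE 0.060, adjusted p = 0.180 in limma's fit). Mrpl13 read 4.19, 4.19, 4.31 and 4.27 in saline and 4.33, 4.33, 4.41 and 4.33 in P. gingivalis. Its groups stood just apart, with a difference of 0.11 (SE 0.053, limma adjusted p = 0.295). A far dimmer second probe of Mrpl13 gave 0.078 with overlap. Mrpl3, in which human mutations cause cardiomyopathy, differed by -0.061 (SE 0.071) with overlapping groups. Mrpl1, of the stalk that guides spent tRNA out, read 2.94, 2.85, 2.93 and 2.81 in saline and 3.07, 3.03, 2.95 and 2.95 in P. gingivalis. Its groups were separated by a narrow margin (difference 0.11, SE 0.058, limma adjusted p = 0.320), and a second probe gave 0.19, also without overlap.

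Around the exit tunnel, where the new chain leaves toward the inner membrane, 3 of 7 members were higher and 4 lower (median -0.0090). Mrpl22, whose bacterial counterpart lines the tunnel, was the lower member with the smallest p among those with separated groups. It read 4.06, 4.02, 4.11 and 4.10 in saline and 3.96, 3.91, 3.95 and 3.96 in P. gingivalis (difference -0.13, SE 0.047, limma adjusted p = 0.193). Its second kept probe did not repeat this, as described with the probe comparisons. Mrpl45, which ties the ribosome to the inner membrane, read 3.99, 3.68, 4.04 and 3.86 in saline and 3.93, 3.90, 3.95 and 3.74 in P. gingivalis. The difference of -0.013 (SE 0.092) was small beside the spread within saline. Mrpl47 and Mrpl32, both at the tunnel exit, gave 0.16 (SE 0.076) and 0.15 (SE 0.075), each with overlapping groups.

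Among other large subunit proteins, Mrpl57 was the second member that was lower on every P. gingivalis array. It read 5.27, 5.22, 5.26 and 5.21 in saline and 5.18, 5.17, 5.11 and 5.06 in P. gingivalis (difference -0.11, SE 0.051, limma adjusted p = 0.271). Mrpl57 is one of the proteins without a bacterial counterpart. Mrpl44, related to the ribonuclease III family and mutated in a human cardiomyopathy, differed by 0.028 (SE 0.056) with overlap. A dimmer second probe of Mrpl44 gave 0.20, from 0.52, 0.56, 0.56 and 0.57 in saline to 0.76, 0.63, 0.77 and 0.83 in P. gingivalis, without overlap. Of the 4 proteins of the central protuberance (Mrpl38, Mrpl40, Mrpl46 and Mrpl48), 3 were higher and 0 had separated groups.

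In the small subunit, 6 of the 29 genes by name had higher and separated groups and 0 had lower ones. For the higher direction that is 20.7%, against 7.35% of all genes and 10.5% of the genes in the members' range of signal. In the lower direction these 2 shares were 6.07% and 7.29%. The median difference of the 29 small subunit genes was nevertheless 0.0038, with 15 higher and 14 lower. The large subunit had 3 of 48 higher and 2 of 48 lower with separated groups, and a median of 0.0043. Whether the subunits differ was not tested. Names and places do not always agree, since Mrps18a and Mrps30 sit in the large subunit. With only these moved, 6 of 27 small subunit genes and 3 of 50 large subunit genes were higher with separated groups. Mrps36, described below, was left among the 27. The count of 6 by name was 3 with the processing of the deposited table rebuilt, where 8.98% of all genes were higher with separated groups. It was 4 with normexp background correction (7.74% of all genes) and 12 under median scaling (22.0% of all genes).

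Of the body of the small subunit, 3 of 4 members were higher. Mrps17, which contacts the ribosomal RNA of the body, read 3.98, 3.70, 3.997 and 3.90 in saline and 4.08, 4.06, 4.16 and 4.08 in P. gingivalis. The difference was 0.20 (SE 0.076, limma adjusted p = 0.201), with saline 2 well below the other saline arrays. A dimmer second probe of Mrps17 gave 0.17 with overlap. Mrps5, beside the entry of the messenger RNA, read 2.48, 2.44, 2.51 and 2.38 in saline and 2.58, 2.59, 2.57 and 2.54 in P. gingivalis. Its groups were apart by a small margin (difference 0.12, SE 0.050, limma adjusted p = 0.251). Its second probe gave 0.24, but that value came mostly from P. gingivalis 1 at 1.82, the other 3 P. gingivalis arrays lying at 1.12, 1.19 and 1.17 and saline at 1.06 to 1.15. Mrps12, at the decoding centre, was -0.094 (SE 0.063) and Mrps16, mutated in a human defect of mitochondrial translation, 0.0070 (SE 0.068), both with overlap.

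The platform, where the messenger RNA leaves, held the member with the greatest difference at the brightest kept probe. Mrps11 read 1.099, 1.05, 1.30 and 1.11 in saline and 1.32, 1.41, 1.39 and 1.40 in P. gingivalis. Saline 3 came close to the lowest P. gingivalis array, though the groups stayed apart (difference 0.24, SE 0.067, limma adjusted p = 0.126). Mrps6, Mrps15, Mrps18c and Mrps21 lie on the platform as well, and their groups overlapped at the brightest kept probe. Mrps18c differed by -0.064 (SE 0.055), while a largely overlapping second probe gave -0.12 with separated groups. Mrps21 gave 0.072 at its brightest probe and 0.15, with separated groups, at another. The dimmest kept probe of Mrps21 gave 0.11 with overlap.

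In the head, which holds the tRNAs with the large subunit, 5 of 8 members were higher (median 0.026). Mrps24 read 3.96, 3.79, 3.87 and 3.89 in saline and 4.11, 4.05, 4.10 and 4.02 in P. gingivalis. All P. gingivalis arrays lay above saline, with a difference of 0.20 (SE 0.056, limma adjusted p = 0.127). No other member of the head had separated groups at its brightest kept probe. Mrps7 gave -0.043 with overlap at its brightest probe and 0.14 without overlap at a dimmer one. Of 6 other small subunit proteins found in mitochondria alone, 2 were higher and 4 lower (median -0.055), and the higher ones were Mrps26 and Mrps27. These 6 leave out others without a bacterial counterpart, such as Mrps31 (0.095), Mrps35 (0.099) and Mrps33 (-0.0059). All of those left out by name here overlapped at the brightest kept probe. Mrps26 read 4.65, 4.54, 4.66 and 4.65 in saline and 4.68, 4.79, 4.80 and 4.76 in P. gingivalis. Its highest saline and lowest P. gingivalis arrays nearly touched (difference 0.13, SE 0.054, limma adjusted p = 0.234). Mrps27, a protein of the pentatricopeptide repeat family, which binds RNA, read 1.53, 1.40, 1.55 and 1.55 in saline and 1.61, 1.63, 1.67 and 1.61 in P. gingivalis. The difference was 0.12 (SE 0.054, limma adjusted p = 0.267), without overlap. Mrps22, mutated in a human disorder with cardiomyopathy, was -0.050 (SE 0.061).

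**Figure D3:**
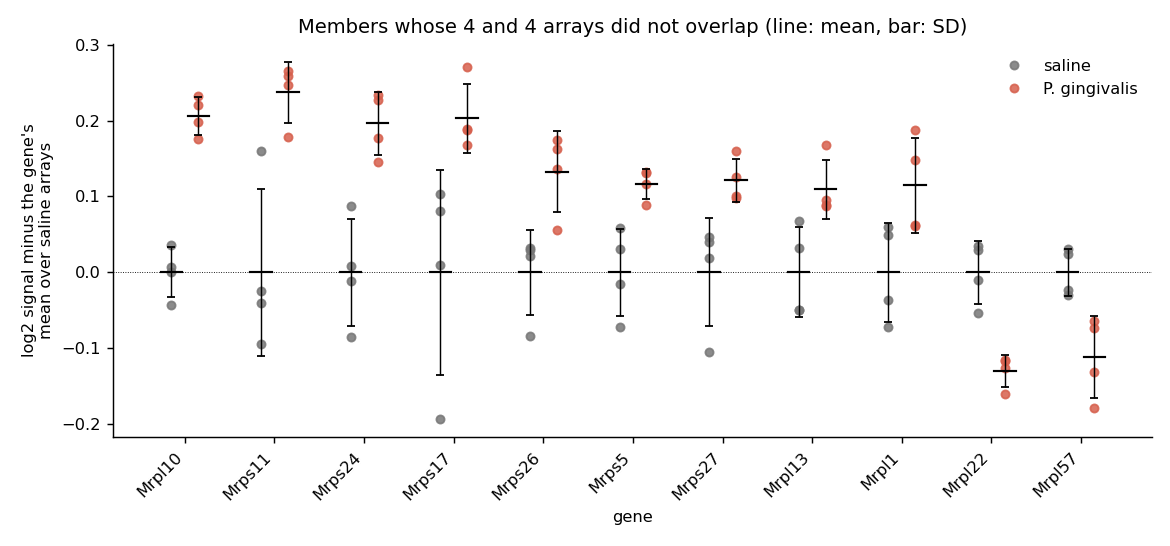
The 11 members whose groups did not overlap are shown on each of the 8 arrays as log2 signal minus the gene's mean over the saline arrays (y axis), with lines for group means and bars for SD (n = 4). In 9 genes the P. gingivalis points lie above the saline points and in Mrpl22 and Mrpl57 below.

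Mrps30, also known as a programmed cell death protein and placed in the large subunit, read 3.22, 3.04, 3.06 and 3.05 in saline and 3.30, 3.20, 3.27 and 3.26 in P. gingivalis. Saline 1 overlapped the P. gingivalis arrays (difference 0.17, SE 0.060, limma adjusted p = 0.190). Mrps18a, Mrps18b and Mrps18c are paralogs of 1 bacterial protein, placed at different sites of the mitochondrial ribosome. Their differences were 0.12 (SE 0.068), -0.051 (SE 0.062) and -0.064 (SE 0.055). Each had overlapping groups at its brightest kept probe. Mrps36, named as a ribosomal protein but known as a subunit of the 2-oxoglutarate dehydrogenase complex, was -0.055 (SE 0.063).

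By the number in the name, 44 members have bacterial homologs and 33 do not, and their median differences were 0.0030 and 0.012. Separated groups were higher in 6 and 3 of these genes and lower in 1 and 1, against 7.35% and 6.07% of all genes. The number is only a guide, since Mrpl47, Mrpl55, Mrps24 and Mrps28 are bacterial homologs by their structural names. With these moved, separated groups were higher in 7 of 48 homologs and 2 of 29 others and lower in 1 and 1.

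Members with a YY1 core in the promoter window were higher in 8 of 8 cases (median 0.081), and members without it in 27 of 60 (median -0.0084). Those with an ETS core were higher in 8 of 25 (median -0.021), and those without in 27 of 43 (median 0.024). These splits were looked at after the values were known and have no test. Counted against the median of all genes, which differs between scalings, the YY1 group was above it in 8 of 8 members in the main processing and in 6 of 8 under quantile normalization. The count of higher members was 7 of 8 with normexp background correction, with the mean of all kept probes, with the dimmest kept probe, and without saline 2, P. gingivalis 3 or P. gingivalis 4. The ETS group was above the median of all genes in 11 of 25 members in the main processing. Its count of higher members became 13 of 25 without saline 3 (median 0.0010), 13 with the median of the kept probes as the scale, 13 with each gene's dimmest kept probe, and 25 under median scaling. It was 12 with the mean of all kept probes. The genes with a YY1 core were Mrps11, Mrps24, Mrps27, Mrps18a, Mrpl37, Mrpl42, Mrpl36 and Mrpl35.

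Members with dim probes were mostly higher in P. gingivalis and members with bright probes mostly lower, brightness being a property of the probe and not a level of the transcript. Of 21 members whose probe had a mean log2 signal under 3, 19 were higher (90.5%, median 0.056), against 46.1% of all genes under 3. Many of those genes were dimmer than any member, and of the 6810 within the members' own range of signal 50.9% were higher. Between 3 and 4.5, 13 of 25 members were higher. Over 4.5, 9 of 31 were higher (29.0%, median -0.029), against 61.7% of all genes over 4.5 and 56.2% of the 1332 within the members' range. That count was 14 of 31 without saline 3 or without P. gingivalis 4 (medians -0.014 and -0.012), and without saline 2 it was 8, with a median of -0.058. Under median scaling 30 of the 31 were higher. In the main scaling, 10 of the 31 and 19 of the 21 dim ones lay above the median of all genes. Across the 77 members, Pearson's r of difference with signal was -0.39 (Spearman's rho -0.45), and over the 10018 genes in the same range of signal it was 0.050. The genes share the same arrays and are not independent, so no p is given. Under quantile normalization r was -0.42, with normexp background correction -0.35 and with the rebuilt processing of the deposited table -0.36. The bounds of 3 and 4.5 were set after the values were seen, and the part of background or scaling in this pattern was not tested.

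**Figure D4:**
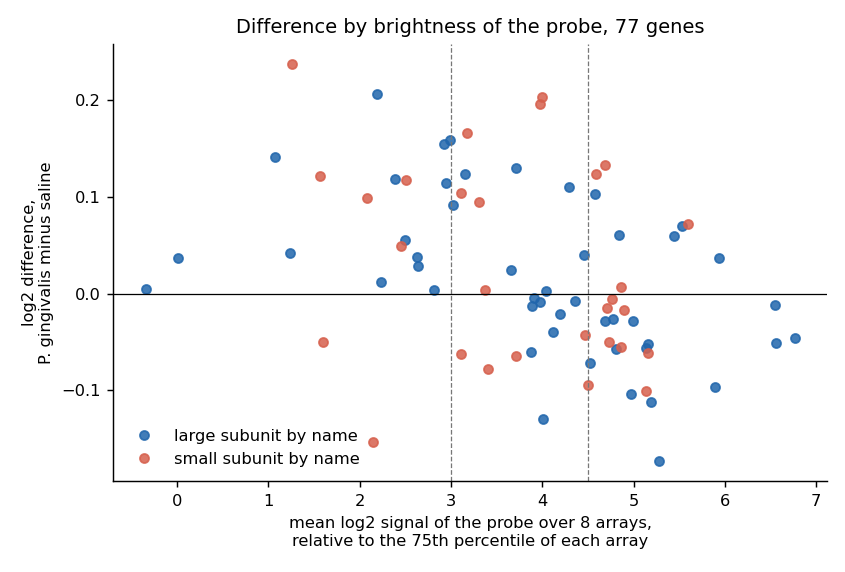
For 77 genes, the log2 difference (P. gingivalis minus saline, y axis) is plotted against the mean log2 signal of the probe over 8 arrays (x axis), with dashed lines at 3 and 4.5 and the subunits by name in different colours. Left of 3, 19 of 21 points are above 0, and right of 4.5, 9 of 31.

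Different probes of a gene can be set side by side as well. The array holds 119 probes for the members, of which 111 were kept and 28 genes had more than 1. In 20 of these 28 genes (71.4%) the dimmer kept probes averaged a more positive difference than the brightest, against 59.3% of 7438 genes. The median gap was 0.047 for the members and 0.052 for all genes. The 8 member probes that were not kept, being well above background on no more than 1 array, were all lower in P. gingivalis, by -0.082 to -1.35. Such dim probes give no measured fold.

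In 7 members, kept probes had opposite signs at least 0.2 apart, namely Mrpl22, Mrps2, Mrps15, Mrps18a, Mrps18b, Mrps31 and Mrps33. Some of the probes concerned span an exon junction, since 60 bases of probe cover a longer stretch of genome. Sequences of 3 such probes are shown with the junction probe of Mrps11, because the genes' probes differ in position, 5′ to 3′ and all in lower case as no base is singled out. In build mm9 the Mrpl22 probe covers chr11:57988800-57989648 (plus strand), the Mrps18b probe chr17:36051313-36051461 (minus strand), the Mrps33 probe chr6:39752503-39755388 (minus strand) and the Mrps11 probe chr7:85933622-85935544 (plus strand).
Mrpl22: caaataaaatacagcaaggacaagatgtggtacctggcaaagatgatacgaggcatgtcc
Mrps18b: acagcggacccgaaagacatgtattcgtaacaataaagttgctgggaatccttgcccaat
Mrps33: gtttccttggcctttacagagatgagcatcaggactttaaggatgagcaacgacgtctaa
Mrps11: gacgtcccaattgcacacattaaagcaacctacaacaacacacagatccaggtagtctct
The Mrpl22 junction probe read 1.97, 2.09, 2.11 and 2.20 in saline and 2.22, 2.19, 2.26 and 2.33 in P. gingivalis. Its difference of 0.16, with overlap, stood against -0.13 at the brightest probe, which lies at chr11:57992990-57993049. The Mrps18b junction probe read 1.76, 1.60, 1.80 and 1.67 in saline and 1.91, 1.99, 1.99 and 1.85 in P. gingivalis. That is a difference of 0.23 without overlap, while the brightest and a largely overlapping probe gave -0.051 and -0.024. Mrps33's junction probe gave 0.12, its brightest probe -0.0059 and its dimmest kept probe -0.21.

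In the other 4 genes the unlike probes were as follows. Mrps18a gave 0.12 at its brightest probe and -0.33 at a far dimmer one, which read -2.35, -2.26, -2.33 and -2.62 in saline and -2.44, -2.95, -2.75 and -2.75 in P. gingivalis. Mrps31, a protein of the small subunit's head, gave 0.095 at its brightest probe and -0.27 at a dim one. Mrps2, which in bacteria binds the small subunit late, gave -0.15 and 0.12, and Mrps15, an early-binding protein of the platform, -0.015 and 0.20. Which transcripts of a gene each probe reads was not tested.

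**Figure D5:**
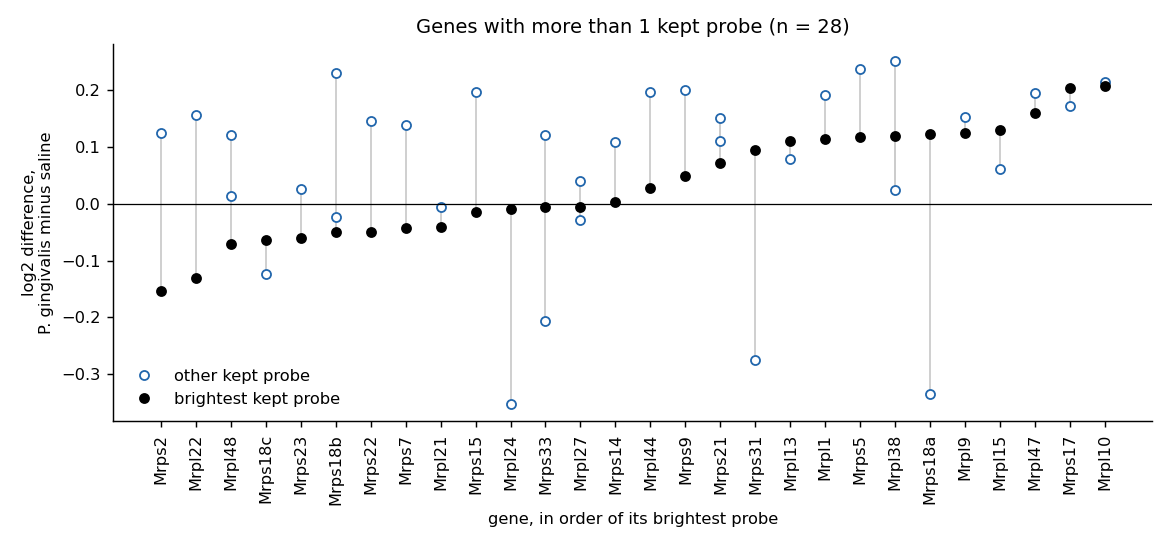
For the 28 genes with more than 1 kept probe, log2 differences (P. gingivalis minus saline, y axis) are drawn for the brightest probe (filled) and for the others (open). Mrpl10 shows the same difference at both probes, 0.21, while Mrps18a spans 0.12 to -0.33.

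Genes that work with the mitochondrial ribosome were measured as well, and limma called 0 of 90 of them, with 15 higher and 2 lower at an unadjusted p under 0.05, where the shares of all genes were 10.1% and 9.66%. Of 27 factors for assembly and ribosomal RNA modification, 16 were higher, 4 of them and 0 of the lower ones at an unadjusted p under 0.05. Rcc1l, which takes part in ribosome assembly, read 0.96, 0.82, 0.84 and 0.97 in saline and 1.15, 1.12, 1.19 and 1.12 in P. gingivalis, without overlap (difference 0.25, SE 0.056, limma adjusted p = 0.0893). Rbfa, which matures the small subunit RNA, gave 0.19 (SE 0.063) with overlap. Of 17 translation factors and activators, 9 were higher, 6 of them at an unadjusted p under 0.05 (10.1% of all genes), and 0 lower ones passed that level. Guf1, a GTPase of the elongation factor 4 family, read -0.52, -0.59, -0.51 and -0.53 in saline and -0.34, -0.26, -0.24 and -0.26 in P. gingivalis. Its groups were apart, with a difference of 0.26 (SE 0.050, limma adjusted p = 0.0679). Gfm2, a GTPase that helps recycle ribosomes, gave 0.15 (SE 0.053), also without overlap.

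Of 20 mitochondrial aminoacyl-tRNA synthetases and related enzymes, which charge the tRNAs, 15 were higher, 4 of them at an unadjusted p under 0.05, and 1 lower one was too, beside 10.1% and 9.66% of all genes. Gatc, a subunit of the enzyme that makes glutaminyl-tRNA, read -0.75, -0.83, -0.71 and -0.74 in saline and -0.46, -0.49, -0.38 and -0.41 in P. gingivalis. The groups were clearly apart (difference 0.32, SE 0.052, limma adjusted p = 0.0594). Cars2, the cysteinyl-tRNA synthetase, gave 0.17 (SE 0.057), without overlap. Of 11 genes for mitochondrial DNA maintenance and transcription, 6 were higher. Tfam, which packages mitochondrial DNA and starts its transcription, gave 0.19 (SE 0.056, limma adjusted p = 0.135) without overlap, and Top1mt, a mitochondrial topoisomerase, 0.18 (SE 0.080). Of 9 nuclear regulators of mitochondrial genes, 5 were higher. Gabpb1, a subunit of the factor that binds the ETS core, gave -0.24 (SE 0.095) and Ppargc1b, a coactivator of mitochondrial genes, -0.29 (SE 0.13), both with overlap. The 2 differences of greatest size in that list were positive, 0.36 (SE 0.23) for the coactivator Ppargc1a and 0.32 (SE 0.15) for Myc, a transcription factor of growth, which were named after their values were seen and also overlapped. Among 6 mitoribosomal proteins with other names, Aurkaip1 gave -0.12 (SE 0.058) and Dap3 0.086 (SE 0.055).

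Beside the members, complex I subunits were higher in 26 of 36 cases (median 0.031), and cytosolic ribosomal proteins in 43 of 78 (median 0.013), with 0 called by limma in both. At an unadjusted p under 0.05, 4 and 6 were higher and 1 and 2 lower. Separated groups were higher in 4 of 36 and 7 of 78 and lower in 1 and 3, against 7.35% and 6.07% of all genes. Markers of cells in the muscle are given beside the members. In the main scaling, slow fibre markers were higher in 9 of 9 cases (median 0.14), fast fibre markers in 11 of 11 (median 0.17) and red blood cell markers in 7 of 7 (median 0.57). In the fast list, Myh4 ran from 1.95 to 7.70 across saline arrays and from 4.03 to 7.66 across P. gingivalis arrays. Myh4, Actn3 and Pvalb were each lowest on saline 1 and P. gingivalis 3 within their groups. Macrophage markers were lower in 7 of 8 (median -0.24) and neutrophil markers in 6 of 7 (median -0.23). In the neutrophil list S100a8 and S100a9 gave -2.2 (SE 0.72) and -2.1 (SE 0.79), both with overlap. Endothelial markers were lower in 5 of 8 (median -0.089), adipocyte markers in 4 of 7 (median -0.043), Schwann cell markers in 4 of 6 (median -0.11) and fibroblast and matrix markers in 3 of 6 (median -0.0040). Limma called none of these markers, the smallest adjusted p being 0.0556, in the fast fibre list. The endothelial genes Egfl7 and Kdr, at -0.40 (SE 0.065, limma adjusted p = 0.0594) and -0.55 (SE 0.10, limma adjusted p = 0.0643), had separated groups and were singled out after their values were seen. The 3 higher endothelial markers, Pecam1, Tie1 and Tek, gave 0.18 (SE 0.073), 0.18 (SE 0.11) and 0.058 (SE 0.076), each with overlap. Summed up by array as the list's median deviation, red blood cell markers ranged from -1.16 to 0.48 in saline and from -0.06 to 0.59 in P. gingivalis, and macrophage markers from -0.72 to 0.71 and from -0.57 to 0.15. In both lists the groups overlapped. Their part in the members' values was not tested.

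The authors' deposited table gave 92 rows for the 77 members, of which 0 had an adjusted p under 0.05 in it, against 1.53% of all its rows. The smallest adjusted p among them in the authors' deposited table was 0.0902, for a row of Mrpl38, a protein of the central protuberance. In 76 of 92 rows the authors' deposited table had the opposite sign to the fit from the scanner files, the group names being exchanged in it.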

How the data were processed

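Total RNA of 8 soleus samples was labelled with Cy3 and hybridised to Agilent arrays, 4 samples per group, per the labels' protocols. The deposited spot intensity values came from Agilent Feature Extraction 11.0.1.1, which subtracted a background surface and detrended each array, per the file headers (the submitters' processing notes list 11.1), with probe positions in build mm9. The authors' deposited table holds log2 values, log2 differences and p-values, and its moderated statistics and log odds are a deposited score that was not used. How the authors made that table is not given in the sources used here.

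From the scanner files, log2 of the processed signal was taken minus the array's 75th percentile. Control spots and outlier-flagged spots were left out. Probes well above background on at least 4 arrays were kept, 33636 of 56605, and a gene was represented by its brightest kept probe. Members carry the names of the array design. Other probes were named through RefSeq accession or symbol (GRCm38.p6) where matched. Groups were compared by limma 3.58.1 in R 4.3.3 (lmFit, eBayes, two-sided, no covariate), with Benjamini-Hochberg adjustment over 22221 genes, and the fit was tested on simulated data. The number of arrays limits the precision.

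The members, lists and alternatives were chosen with earlier results of these data known, and the groups by place in the ribosome with these values known. Named genes were members with an adjusted p under 0.05, up to 10 per direction with separated groups, 14 fixed members, members with unlike probes, and up to 2 per related list. Mrpl2, Mrpl32, Mrpl38, Mrpl47, Mrps7, Mrps21, Mrps35, Egfl7, Kdr, Pecam1, Tie1, Tek, Myh4, Actn3, Pvalb, S100a8, S100a9, Ppargc1a and Myc were added after their values were seen. Alternatives covered background correction, scaling, the filter, the probe rule, the variance model, the replicate number as a block, each array left out, and a rebuilt processing of the table (median spot signals corrected by normexp (offset 16) and then quantile normalized, steps that earlier work on these files found to give its values).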

Additional observations from a re-analysis of the deposited data

Results flagged for a closer look

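Among 58 groups of 4 arrays, for the named members and the median deviation, 5 held an array far from the other 3. Chance flags about 1 in 20 groups. In Mrps26, saline 2 read 4.54 against 4.65 to 4.66 on the other saline arrays. In Mrpl13, P. gingivalis 3 read 4.41 against 4.33 on the others, and in Mrps30, saline 1 read 3.22 against 3.04 to 3.06. In Mrps22, P. gingivalis 1 read 1.67 against 1.54 to 1.55, and in Mrps15, P. gingivalis 1 read 4.59 against 4.73 to 4.74. All are log2 signals relative to the array's 75th percentile. The cause was not tested.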

How the results depend on the processing

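Of the 28 named members, 18 kept their direction in all 18 alternatives other than median scaling. These include the replicate block, the trended, robust variance and both changes of the filter. Those settings left every member's difference as it was, so they could not turn a direction. Median scaling adds 0.15 to every gene's difference, so it can turn negative values only. Mrpl22, Mrpl57, Mrpl3, Mrpl11, Mrpl45, Mrps12, Mrps18b, Mrps18c, Mrps22, Mrps36, Mrps15 and Mrps33 thereby came to 0.019, 0.037, 0.088, 0.093, 0.14, 0.055, 0.098, 0.085, 0.099, 0.094, 0.13 and 0.14. It also gave 10 members past the threshold, a median of 0.15, 31 higher and 0 lower with separated groups, and 37 higher and 0 lower at an unadjusted p under 0.05. The higher shares, 40.3% and 48.1%, stood beside 31.7% and 40.3% of all genes in the same range of signal. The lower shares of all genes were 1.14% and 2.28%. With the mean of all kept probes, Mrpl22, Mrps18a, Mrps18b, Mrps22, Mrps15 and Mrps31 turned to 0.013, -0.11, 0.052, 0.048, 0.091 and -0.090. There 1 member was lower at an unadjusted p under 0.05 (1.3%, against 8.29% of all genes). With the dimmest kept probe, Mrpl22, Mrps18a, Mrps18b, Mrps22, Mrps15, Mrps2 and Mrps31 turned to 0.16, -0.33, 0.23, 0.15, 0.20, 0.12 and -0.27. In that setting 4 members were lower at that p (5.19%, against 7.76% of all genes). Normexp gave -0.019 for Mrps16, 0.017 for Mrps33 and 0 lower members with separated groups (against 6.21% of all genes). Quantile normalization gave -0.0011 for Mrps16 and 5 such members (6.49%, against 5.63% of all genes). The rebuilt processing of the table gave -0.051 for Mrps16 and 0.013 for Mrps33. Scaling to the median of the kept probes gave 0.0095 for Mrpl45, 0.0081 for Mrps15 and 0.017 for Mrps33. At an unadjusted p under 0.05 it gave 13 higher and 1 lower (16.9% and 1.3%, against 12.5% and 7.64% of all genes). The trended, robust variance gave 1 member past the threshold and 12 higher at that p (1.3% and 15.6%, against 2.55% and 10.7% of all genes). Without a filter 1 was lower at that p (1.3%, against 21.3% of all genes). These last alternatives of probe (dimmest) and scaling (kept probes) were chosen after seeing the data.

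Leaving out 1 array in turn gave 0 members past the threshold, against only 0.009% to 0.027% of all genes. The members' median was then -0.016 to 0.029. Separated groups were higher in 9 to 17 members (11.7% to 22.1%) and lower in 2 to 4 (2.6% to 5.19%). The shares of all genes were 8.69% to 11% and 7.89% to 9.82%. At an unadjusted p under 0.05, 3 to 9 members were higher (3.9% to 11.7%) and 0 to 2 lower (0% to 2.6%). At that p the shares of all genes were 8.06% to 10.3% and 7.68% to 10.5%. The 17 came without saline 3, the 4 without P. gingivalis 2 or saline 4, and the 3 without P. gingivalis 3 or saline 4. Without saline 2, 4 members were higher at an unadjusted p under 0.05. Lower at that p were 0 without saline 3 and 1 without P. gingivalis 1, P. gingivalis 2, P. gingivalis 3 or saline 4. Mrpl45 lay between -0.084 and 0.036, Mrps16 between -0.036 and 0.046, Mrps15 between -0.034 and 0.020, and Mrps33 between -0.027 and 0.029. With the replicate block 1 member was lower at an unadjusted p under 0.05 (1.3%, against 9.84% of all genes). The block left 0 members past the threshold, and 0 of all genes passed against 26 without it. Each gene's group mean was taken off, and the deviations of same-numbered arrays were then correlated over all genes. These correlations were 0.064, -0.058, -0.041 and 0.23, so the numbers are not taken to pair the samples. The cause of these shifts was not tested.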
